A study of Homo sapiens with 15 samples.

Results

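The D cyclins (CCND1, CCND2 and CCND3), the kinases they activate (CDK4 and CDK6) and the inhibitors that restrain those kinases (CDKN1A, CDKN1B, CDKN1C, CDKN2A and CDKN2B) were followed in 2 cell lines. The amount of the transcription factor FOXL2 had been altered in these lines, which the study describes as granulosa cell tumour (GCT) lines. All probe sets of the Affymetrix U133 Plus 2 array whose only annotated gene symbol was one of these 10 genes were included, which gave 28 of 54613 probe sets and 10 of 19775 genes. Where a gene had several probe sets, the one with the highest mean over all 15 arrays represents it, and the others are described beside it.

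KGN, a line from an adult-type GCT that carries the FOXL2 mutation 402C>G on 1 of its alleles, received GC matched control siRNA or FOXL2 stealth RNAi at passage 8. COV434 lacks that mutation, and the study takes it as representative of juvenile-type GCT. It received 1 µg of empty vector, of pFOXL2wt (wildtype FOXL2) or of pFOXL2m (mutant FOXL2) at passage 9. In every group 300000 cells were seeded per well, transfection complexes were taken off after 7 h, and RNA was extracted at 24 h, of which 105 ng was labelled for each array. Each of the 5 groups holds 3 arrays from separate transfections made on the same occasion, so that p-values measure the spread between transfections and not between independent experiments. A single siRNA product was used, and no untransfected cells are among the groups. Replicates are numbered here only to name the arrays.

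D cyclins are made in response to growth signals and bind CDK4 or CDK6, and the resulting kinases phosphorylate the retinoblastoma protein RB, which releases E2F transcription factors and lets a cell leave G1. The INK4 inhibitors p16 (from CDKN2A) and p15 (from CDKN2B) bind CDK4 and CDK6 directly, whereas the CIP/KIP proteins p21 (CDKN1A), p27 (CDKN1B) and p57 (CDKN1C) act on cyclin-CDK complexes more widely. In the ovary CCND2 is the D cyclin best known for granulosa cell growth, and p27 is known for cell cycle exit when granulosa cells become luteal cells.

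The 2 lines differed in the RNA levels of most of these genes, while after altering FOXL2 members were called only in some of the fits. Among control cells, CCND1, CCND2, CDK6 and CDKN1A were higher in KGN, and CCND3, CDK4, CDKN1C, CDKN2A and CDKN2B were higher in COV434. In the main fit of each line, with all its arrays, no member probe set passed an adjusted p of 0.05 after knockdown or after overexpression. The first empty vector array stood apart in RNA quality. When it was left out, CDKN1B rose with both forms of FOXL2 and CDKN1A rose with mutant FOXL2. These calls rest on replicates 2 and 3 of the empty vector group. In the same fits 3.57% of member probe sets were called with wildtype FOXL2, against 2.3% of all probe sets. With mutant FOXL2 the shares were 7.14% and 2.99%.

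The FOXL2 probe set read 8.13, 7.91 and 8.18 with control siRNA and 6.24, 6.33 and 6.32 after knockdown, a fall of 3.42-fold (log2 difference -1.77, SE 0.10, limma adjusted p = 0.0006). In COV434 it lay between 2.47 and 3.11 on all 9 arrays, below the background level, also in cells given FOXL2 plasmid. By the study's account this probe set reads the untranslated 3′ end of the transcript, which the plasmids do not carry, so it cannot check overexpression. The study measured overexpression by RT-qPCR and Western blot, which were not analysed here. Background here is the 95th percentile of the mean signals of 143 probe sets for olfactory receptors and keratin-associated proteins, 5.28 in KGN and 5.05 in COV434. Of 14 measured genes in the granulosa list, 8 lay above it in KGN control cells and 5 in COV434 empty vector cells. The list includes the Sertoli factor SOX9, which read 7.42 in KGN control cells and 3.48 in empty vector cells. FSHR, AMHR2, INHA, CYP19A1 and NR5A1 lay below background in both. FST (5.28) and GATA4 (5.28) lay just above it in empty vector cells. The count was 2 of 7 in each line for epithelial markers, 1 of 5 for leukocyte, 2 of 5 for endothelial, and 4 of 8 for theca and stromal markers. The 3′ minus 5′ signal of ACTB was 7.81 on empty vector replicate 1 and 1.51 to 2.58 on the other 14 arrays, and that of GAPDH was 4.67 against 0.10 to 1.08. Its value lay outside the range of the other 8 COV434 arrays for 15 of the 28 member probe sets, 53.6%, against 46.3% of all probe sets. RNA from a culture was measured, so that fewer cells expressing a gene and less RNA per cell cannot be told apart.

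**Figure D1:**
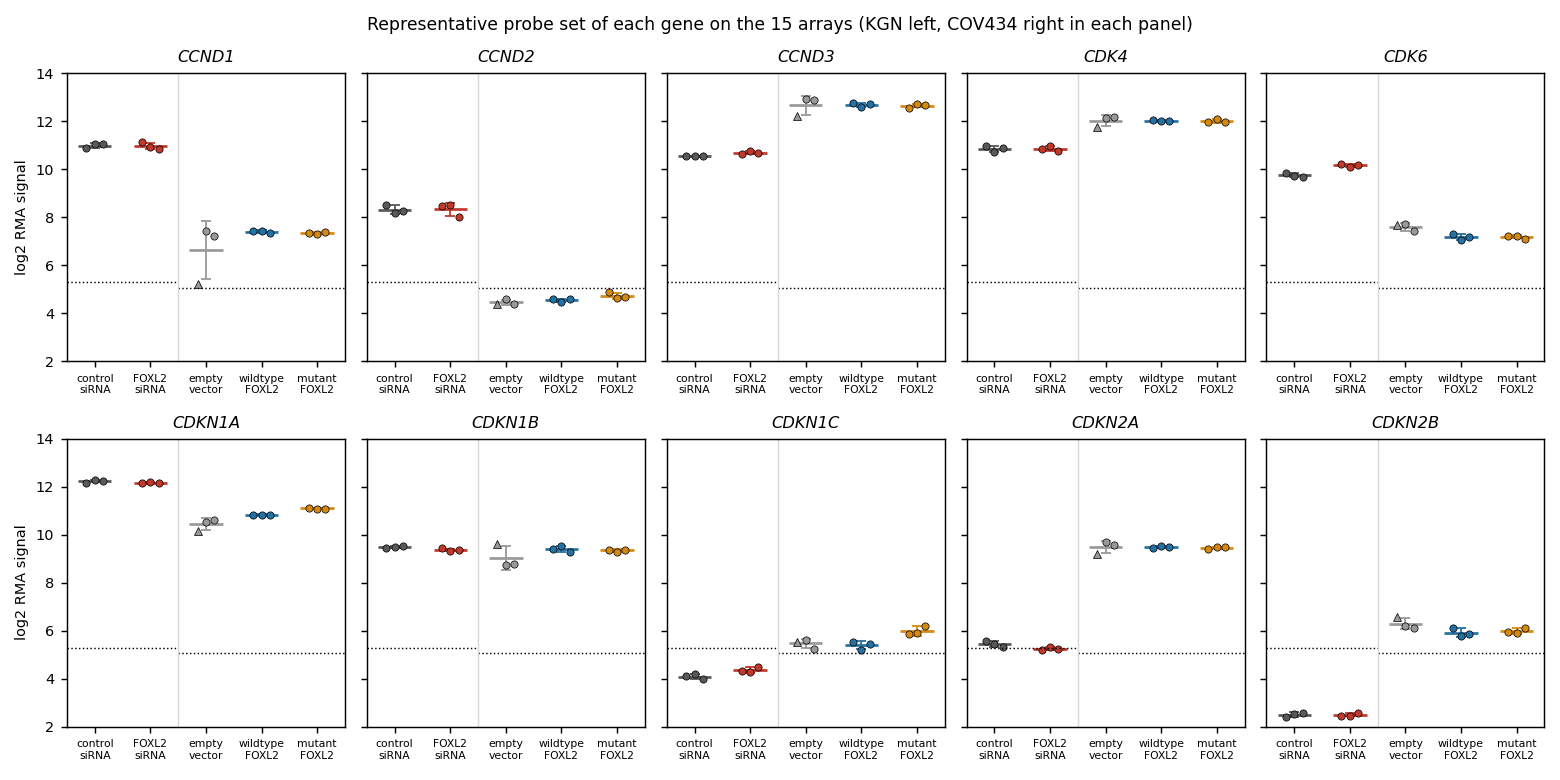
Log2 RMA signal (vertical axis) of the representative probe set of each gene in the 5 groups, with KGN left of the grey line in each panel. Points are arrays, bars are group means with SD, dotted lines are the background level of each line, and the triangle is empty vector replicate 1, which read 5.23 for CCND1 where the other COV434 arrays read 7.24 to 7.44.

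Control cells of both lines were compared to ask which G1 regulators each line expresses. Line, passage and kind of transfection control differ together in this comparison, and their parts cannot be told apart. The markers of other cell types were alike between the lines in number but not in identity. In KGN control cells KRT18 read 14.07, COL1A1 13.16 and LCP1 7.37, against 4.37, 4.46 and 4.16 in empty vector cells, while PTPRC read 3.24, TEK 3.81 and LUM 4.45 against 7.45, 8.38 and 9.81. Their part in the differences between the lines was not tested. Of the 10 genes, 4 were higher in KGN (40.0%, against 39.7% of all genes) and 5 were lower (50.0%, against 16.8% of all genes). The lines appear to have been normalised apart, and the median log2 difference over all probe sets was 0.27 towards KGN as deposited. It was -0.07 once the 6 arrays had been quantile normalised, and the calls stayed at 4 higher (21.5% of all genes) and 5 lower (29.4% of all genes), with the same genes in each direction. Among all probe sets called, 74.7% were higher in KGN as deposited, 43.1% after quantile normalization and 32.4% after centring each array on its median. In the values that follow, the difference after quantile normalization is given in second place. Folds given as at least a value are bounds on the deposited values alone.

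Cyclin D1 was higher in KGN on both of its probe sets. CCND1 (208712_at) read 10.88, 11.03 and 11.04 with control siRNA and 11.12, 10.93 and 10.86 after knockdown in KGN. In COV434 it read 5.23, 7.43 and 7.24 with empty vector, 7.44, 7.43 and 7.32 with wildtype FOXL2 and 7.32, 7.28 and 7.38 with mutant FOXL2. Every KGN array lay above every COV434 array, and 1 empty vector array, replicate 1, lay far below the rest of its group. The log2 difference between control cells was 4.35 (SE 0.51, limma adjusted p = 0.0002) and 4.03 after quantile normalization. Without empty vector replicate 1 it was 3.65 (SE 0.12), or 12.6-fold against 20.4-fold. The second CCND1 probe set differed by 4.02 (SE 0.27), with 9.36 to 10.38 in KGN and 5.64 to 6.16 in COV434.

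Cyclin D2 was measured above background only in KGN. CCND2 (200953_s_at) read 8.52, 8.17 and 8.25 with control siRNA and 8.46, 8.49 and 8.02 after knockdown, with overlapping ranges. All 9 COV434 arrays read between 4.38 and 4.87, below the background level of that line. The difference between control cells was 3.87 (SE 0.14) and 3.48 after quantile normalization. Set against the COV434 background level on the deposited values, KGN was at least 9.64-fold higher. The other 3 CCND2 probe sets were below background in both lines.

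Cyclin D3 ran the other way. CCND3 (201700_at) read 10.54, 10.57 and 10.55 with control siRNA in KGN and 12.20, 12.91 and 12.89 with empty vector in COV434, without overlap. COV434 was 4.34-fold higher (log2 difference KGN minus COV434 -2.12, SE 0.20, and -2.41 after quantile normalization). The remaining CCND3 probe set was below background in both lines.

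The kinases also differed in opposite directions. CDK4 (202246_s_at) read 10.96, 10.70 and 10.89 in KGN control cells and 11.76, 12.12 and 12.18 in empty vector cells, 2.25-fold higher in COV434 (-1.17, SE 0.15, and -1.50 after quantile normalization). CDK6 (224847_at) read 9.84, 9.71 and 9.68 in KGN control cells and 7.67, 7.71 and 7.41 in empty vector cells, 4.41-fold higher in KGN (2.14, SE 0.13, and 1.83 after quantile normalization). Neither kinase overlapped between the lines. Of the 7 CDK6 probe sets, 4 lay above background in KGN control cells and 3 in empty vector cells, and all 7 differences were positive, from 0.65 to 2.40.

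**Figure D2:**
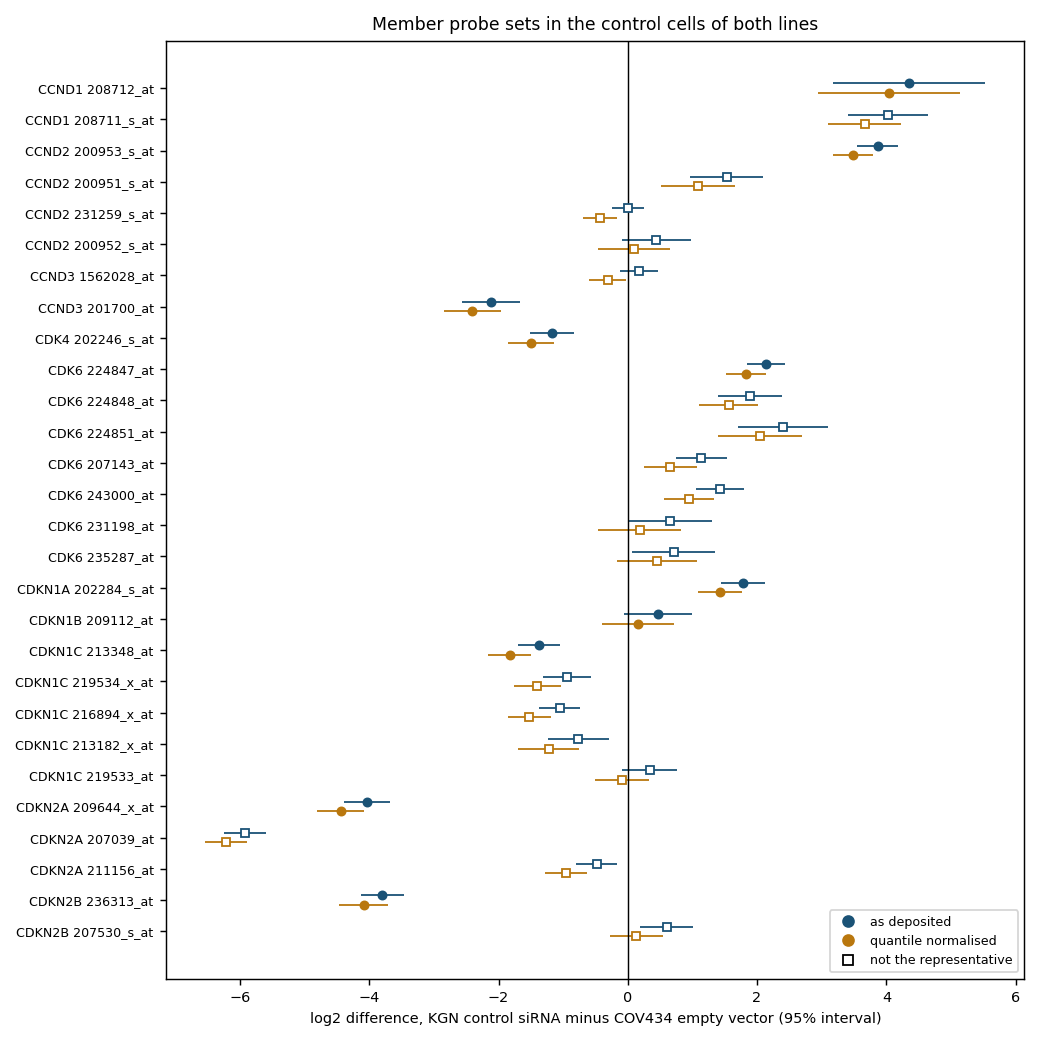
Log2 difference between KGN control siRNA and COV434 empty vector cells (horizontal axis, 95% interval) for the 28 member probe sets, as deposited and after quantile normalization. Filled circles mark the representative probe set of each gene, which lie from 4.35 for CCND1 to -4.04 for CDKN2A, and open squares mark the others.

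Among the CIP/KIP inhibitors, p21 was higher in KGN, p57 was higher in COV434 and p27 did not pass the test. CDKN1A (202284_s_at) read 12.17, 12.26 and 12.23 in KGN control cells and 10.16, 10.53 and 10.62 in empty vector cells, 3.44-fold higher in KGN (1.78, SE 0.15, and 1.43 after quantile normalization). CDKN1B (209112_at) read 9.45, 9.50 and 9.52 against 9.59, 8.71 and 8.75. Its ranges overlapped through empty vector replicate 1 alone, and the difference was 0.47 (95% interval -0.06 to 1.00, adjusted p = 0.123). Without that array it was 0.75 (SE 0.10, limma adjusted p = 0.0006). Both differences are on the deposited values. After quantile normalization of the 6 control arrays CDKN1B was called in neither direction.

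CDKN1C was close to background. Its brightest probe set (213348_at) read 4.11, 4.17 and 3.96 in KGN control cells, below the level of 5.28, and 5.53, 5.62 and 5.23 in empty vector cells, just above the level of 5.05. The difference was -1.38 (SE 0.14) and -1.83 after quantile normalization, and set against the KGN background level COV434 was at least 1.13-fold higher. None of its 5 probe sets lay above background in KGN, and 3 did in COV434. For 219534_x_at and 216894_x_at the same bound was 0.94-fold and 0.93-fold, so it gave no floor for their difference.

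Both INK4 inhibitors were higher in COV434. CDKN2A (209644_x_at) read 5.58, 5.46 and 5.31 in KGN control cells, just above the background level of 5.28. It read 9.21, 9.69 and 9.55 in empty vector cells, 16.4-fold higher in COV434 (-4.04, SE 0.16, and -4.44 after quantile normalization). A second CDKN2A probe set (207039_at) read 2.77 to 3.24 over the 6 KGN arrays and 8.49 to 9.09 over the 9 COV434 arrays, and against the KGN background level its difference in control cells was at least 12.2-fold. The third was below background in both lines. CDKN2B (236313_at) read 2.38, 2.54 and 2.56 in KGN control cells and 6.55, 6.20 and 6.11 in empty vector cells (-3.80, SE 0.15, and -4.09 after quantile normalization), at least 2.01-fold higher in COV434 when set against the KGN background level. Its second probe set was below background in both lines and leaned the other way (0.60, and 0.13 after quantile normalization).

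CDKN2A and CDKN2B lie next to each other on chromosome 9p21, so their neighbours were read in the order given by RefSeq (GRCh38.p14), namely KLHL9, IFNE, MTAP, CDKN2A, CDKN2B-AS1, CDKN2B, DMRTA1 and ELAVL2, with further genes between them left out. MTAP, an enzyme of methionine salvage, read 2.94, 2.97 and 3.05 in KGN control cells and 7.79, 7.48 and 7.58 in empty vector cells. Its difference was -4.63 (SE 0.12, and -4.92 after quantile normalization), at least 5.03-fold against the KGN background level, and 0 of its 6 probe sets lay above background in KGN against 2 of 6 in COV434. KLHL9, a ubiquitin ligase adaptor, was measured in both lines, at 8.64, 8.61 and 8.56 against 9.43, 9.23 and 9.35 (-0.73, SE 0.11, and -1.04 after quantile normalization).

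The other neighbours gave no signal above background in either line. The interferon gene IFNE and the antisense transcript CDKN2B-AS1 did not pass the test between the lines, while DMRTA1 differed by 0.96 and ELAVL2 by -1.37 after quantile normalization, all of them below background. Across the 6 listed neighbours 1 was called higher in KGN and 3 lower under either scaling. The shares of all genes were 39.7% and 16.8% as deposited, and 21.5% and 29.4% after quantile normalization. The median difference of the neighbours as deposited was -0.38, beside 0.26 over all genes. The gene copies in these cells were not measured on this array.

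**Figure D3:**
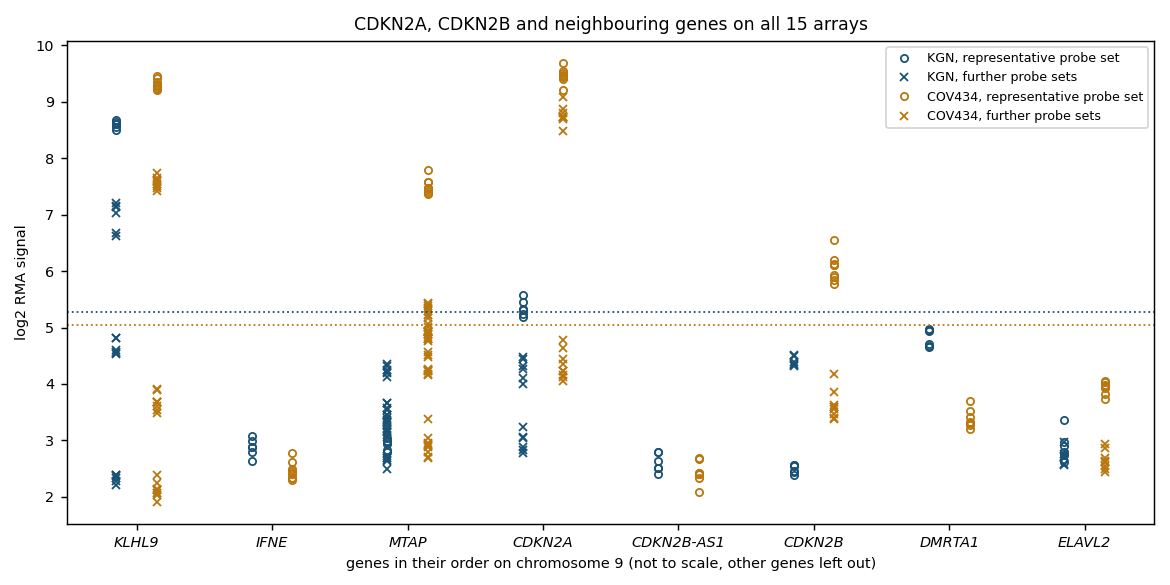
Log2 RMA signal of CDKN2A, CDKN2B and 6 neighbouring genes on all 15 arrays, in the order of the genes along chromosome 9. Circles are representative probe sets, crosses are further probe sets, and dotted lines are the background levels of 5.28 (KGN) and 5.05 (COV434). On their representative probe sets, MTAP and CDKN2B lie under the line in KGN and above it in COV434, and CDKN2A lies close to the line in KGN.

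The 250 bases before the annotated RefSeq starts of CDKN2A and CDKN2B (GRCh38.p14, minus strand, written 5′ to 3′) are shown because both genes were called higher in COV434. In KGN control cells the representative probe set of CDKN2A lay just above background and that of CDKN2B below it. CDKN2A has separate starts for the ARF and the p16 transcript. Capitals mark the GC box GGGCGG, searched on both strands with overlapping matches counted, so that CCGCCC is its match on the other strand.

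CDKN2A, ARF start, chr9:21995325-21995574: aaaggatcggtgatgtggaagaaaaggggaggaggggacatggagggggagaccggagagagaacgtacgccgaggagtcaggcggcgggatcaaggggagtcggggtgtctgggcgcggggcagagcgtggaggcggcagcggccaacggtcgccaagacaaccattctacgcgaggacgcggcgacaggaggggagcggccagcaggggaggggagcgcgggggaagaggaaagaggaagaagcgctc
CDKN2A, p16 start, chr9:21974858-21975107: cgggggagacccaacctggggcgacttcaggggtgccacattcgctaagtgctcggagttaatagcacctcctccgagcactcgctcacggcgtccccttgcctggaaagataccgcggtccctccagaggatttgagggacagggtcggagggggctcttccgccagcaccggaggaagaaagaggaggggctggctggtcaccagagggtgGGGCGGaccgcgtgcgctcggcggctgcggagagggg
CDKN2B, chr9:22009306-22009555: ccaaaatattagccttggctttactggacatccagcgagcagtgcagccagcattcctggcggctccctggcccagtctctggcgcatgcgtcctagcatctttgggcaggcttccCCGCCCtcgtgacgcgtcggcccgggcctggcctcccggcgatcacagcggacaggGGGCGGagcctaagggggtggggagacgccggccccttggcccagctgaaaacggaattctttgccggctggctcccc

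The ARF window held 0 GC boxes and 24 CpG sites, the p16 window 1 and 20, and the CDKN2B window 2 and 18, beside a median of 11 CpG sites (quartiles 3 and 23) over 35116 windows of this length. Of the member genes, 7 matched the table with 11 windows (CCND1, CCND2 and CDKN1C are not among them). The GC box occurred in 8 of the 11 windows and in at least 1 window of all 7 genes, against 42.6% of all windows. The forkhead core GTAAACA, searched in the same way, occurred in 0 of the 11 and in 2.98% of all windows. No methylation or factor binding was measured in these cells.

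Knockdown of FOXL2 in KGN left the members close to their control levels. None of the 28 probe sets passed an adjusted p of 0.05, against 0.273% of all probe sets, and 5 (17.9%) had an unadjusted limma p under 0.05, against 7.50% of all. These 5 belong to CDK6, CDKN1C and CDKN2A, and probe sets of a gene share its transcript. For CCND1 the 95% interval of the difference was -0.24 to 0.21, for CCND2 -0.32 to 0.34 and for CDK4 -0.22 to 0.23. CCND3 read 10.62, 10.75 and 10.68, above all 3 control values, with an interval of -0.05 to 0.32. For CDKN1A it was -0.25 to 0.11, for CDKN1B -0.30 to 0.06, for CDKN2A -0.42 to 0.02 and for CDKN2B -0.21 to 0.19.

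CDK6 was the member nearest to a call after knockdown. It read 10.22, 10.09 and 10.16 with FOXL2 siRNA, each above all 3 control values, and the difference was 0.42 (SE 0.09, 1.34-fold, unadjusted p = 0.0009, adjusted p = 0.155). With a trended and robust variance its adjusted p was 0.0105. Among its other probe sets the differences ran from -0.21 to 0.34. CDKN1C read 4.32, 4.27 and 4.49, above all 3 control values (0.28, SE 0.10, adjusted p = 0.555), with every value below background.

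Wildtype and mutant FOXL2 were each set against the same 3 empty vector arrays in COV434. With wildtype FOXL2 no member probe set was called, against 0.0% of all probe sets, and 5 (17.9%) had an unadjusted p under 0.05, against 11.1% of all. With mutant FOXL2 none was called, against 0.0% of all, and 9 (32.1%) had an unadjusted p under 0.05, against 13.0% of all. Without empty vector replicate 1, 1 member probe set was called with wildtype FOXL2 (3.57%, against 2.30% of all) and 2 were called with mutant FOXL2 (7.14%, against 2.99% of all). What RNA quality on that array contributed was not tested.

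**Figure D4:**
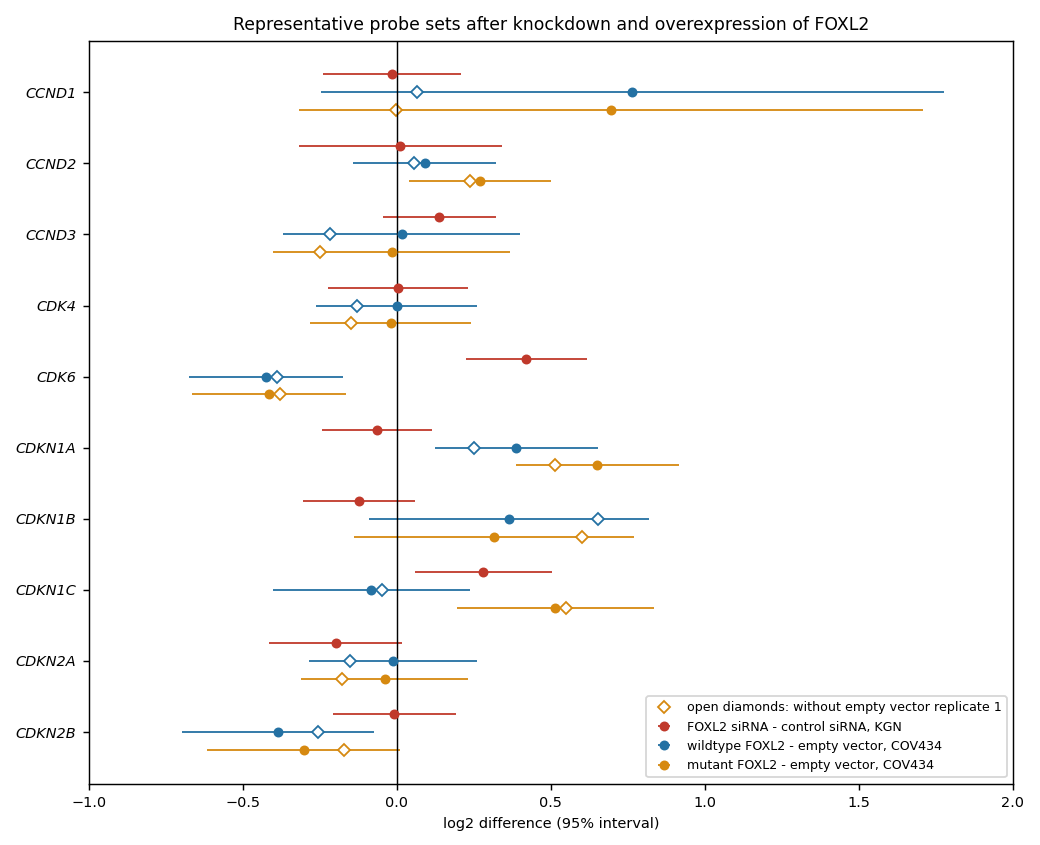
Log2 difference (horizontal axis, filled circles with 95% interval) of the representative probe set of each gene after FOXL2 knockdown in KGN and after wildtype or mutant FOXL2 in COV434. Open diamonds give the COV434 differences without empty vector replicate 1, which moved CCND1 with wildtype FOXL2 from 0.76 to 0.06 and CDKN1B from 0.37 to 0.65.

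The p21 signal was lowest with empty vector and highest with mutant FOXL2. CDKN1A read 10.16, 10.53 and 10.62 with empty vector, 10.83, 10.81 and 10.83 with wildtype FOXL2 and 11.11, 11.08 and 11.08 with mutant FOXL2, and none of these ranges overlapped. With mutant FOXL2 the difference from empty vector was 0.65 (SE 0.12, adjusted p = 0.128), and without empty vector replicate 1 it was 0.51 (SE 0.08, adjusted p = 0.0279). It also passed with all 15 arrays in a single fit (adjusted p = 0.0186). With wildtype FOXL2 the difference was 0.39 (SE 0.12, adjusted p = 0.335), and 0.25 (adjusted p = 0.110) without that array. In KGN the same probe set read 12.16, 12.18 and 12.13 after knockdown.

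The p27 calls depended on 1 array. CDKN1B read 9.39, 9.50 and 9.26 with wildtype FOXL2 and 9.37, 9.27 and 9.36 with mutant FOXL2, against 9.59, 8.71 and 8.75 with empty vector. Empty vector replicate 1 lay above all 6 FOXL2 arrays and the other two lay below them. With all arrays the differences were 0.37 (95% interval -0.09 to 0.82) and 0.31 (-0.14 to 0.77). Without replicate 1 they were 0.65 (SE 0.09, adjusted p = 0.0233) and 0.60 (SE 0.09, adjusted p = 0.0282). In KGN the difference after knockdown was -0.12 (SE 0.08, adjusted p = 0.781).

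For CDKN1A and CDKN1B, each called only in some of the fits, the windows of 250 bases before the RefSeq starts follow. These windows are given in the same way (GRCh38.p14, plus strand, GC boxes in capitals). They held 4 and 1 GC boxes and 27 CpG sites each, and no GTAAACA on either strand.

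CDKN1A, chr6:36678464-36678713: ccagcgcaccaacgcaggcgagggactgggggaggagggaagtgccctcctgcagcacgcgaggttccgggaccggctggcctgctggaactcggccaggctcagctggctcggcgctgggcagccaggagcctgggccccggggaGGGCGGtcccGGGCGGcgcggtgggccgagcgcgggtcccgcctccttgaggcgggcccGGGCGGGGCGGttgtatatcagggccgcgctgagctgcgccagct
CDKN1B, chr12:12717118-12717367: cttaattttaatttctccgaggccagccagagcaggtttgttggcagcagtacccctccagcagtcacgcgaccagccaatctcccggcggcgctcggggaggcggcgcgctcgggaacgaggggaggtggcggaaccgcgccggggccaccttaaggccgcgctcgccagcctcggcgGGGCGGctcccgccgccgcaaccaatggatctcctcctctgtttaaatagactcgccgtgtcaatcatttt

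CDK6 and CDKN2B had lower mean signals with both forms of FOXL2. CDK6 read 7.31, 7.04 and 7.17 with wildtype and 7.23, 7.21 and 7.11 with mutant FOXL2, below all 3 empty vector values, with differences of -0.43 (adjusted p = 0.301) and -0.42 (adjusted p = 0.215). CDKN2B read 6.11, 5.76 and 5.84 and 5.94, 5.90 and 6.12, with differences of -0.39 (adjusted p = 0.391) and -0.30 (adjusted p = 0.396). For CDKN2B all 3 wildtype values lay just below the empty vector values, and the mutant values overlapped them. No difference of either gene passed the test.

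For CCND2, with its COV434 signal below background, the mutant difference was 0.27 (adjusted p = 0.333). For CCND3 and CDK4 the 95% intervals were -0.37 to 0.40 and -0.26 to 0.26 with wildtype FOXL2, and -0.40 to 0.37 and -0.28 to 0.24 with mutant FOXL2. For CDKN2A they were -0.28 to 0.26 and -0.31 to 0.23. CCND1 had the widest intervals, -0.25 to 1.78 and -0.32 to 1.71, and without empty vector replicate 1 they were -0.14 to 0.27 and -0.21 to 0.20.

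Mutant and wildtype FOXL2 were then compared directly, which does not use the empty vector arrays other than for the spread. No member probe set was called, against 0.0% of all, and 4 (14.3%) had an unadjusted p under 0.05, against 1.11% of all. The ranges did not overlap for 5 (17.9%), against 8.03% of all probe sets. Of the 4, 3 belong to CDKN1C and 1 to CDK6.

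p57 was higher with mutant FOXL2 than with the other plasmids, without passing the test. CDKN1C read 5.53, 5.62 and 5.23 with empty vector, 5.52, 5.19 and 5.42 with wildtype FOXL2 and 5.84, 5.89 and 6.20 with mutant FOXL2. All 3 mutant values lay above all 6 others. The difference was 0.60 between mutant and wildtype (SE 0.14, unadjusted p = 0.0020, adjusted p = 1.0) and 0.51 between mutant and empty vector (SE 0.14, adjusted p = 0.225). Between wildtype and empty vector it was -0.08 (95% interval -0.40 to 0.24). The other 4 CDKN1C probe sets differed between mutant and wildtype by 0.17, 0.17, 0.34 and 0.39, and 1 of the 5 (219533_at) was below background in both groups. For CDKN1A the difference was 0.26 (SE 0.12, unadjusted p = 0.0507, adjusted p = 1.0), and the third CDK6 probe set by brightness gave -0.45 (SE 0.13, adjusted p = 1.0).

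**Figure D5:**
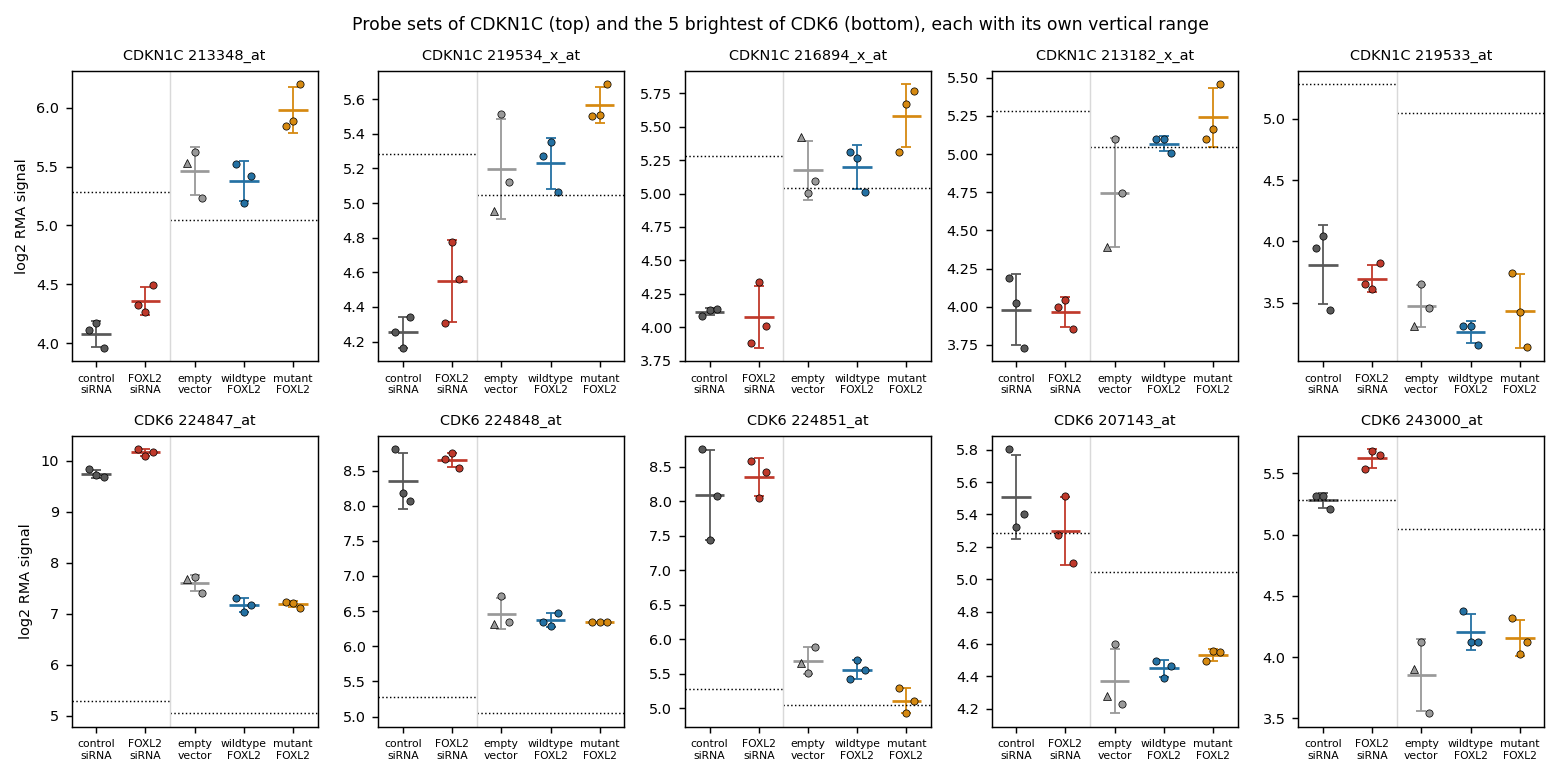
Log2 RMA signal of the 5 probe sets of CDKN1C (top) and the 5 brightest of CDK6 (bottom) on all arrays, each panel with its own vertical range, group means with SD and dotted background levels. In the first CDKN1C panel the mutant FOXL2 arrays read 5.84 to 6.20, above the other COV434 arrays.

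The effect of knockdown in KGN was compared with that of mutant overexpression in COV434 by testing the difference of the 2 effects. By the study's account the knockdown probably silenced both the wildtype and the mutant allele of KGN. CDK6 was the only member called, 1 of 28 (3.57%, against 0.227% of all probe sets), with a difference of 0.84 (SE 0.14, adjusted p = 0.0276). CDK6 was 0.42 higher after knockdown and 0.42 lower with mutant FOXL2. Its mean was also lower with wildtype FOXL2 (7.17) than with empty vector (7.60). The call was lost, at differences of 0.80 to 0.87, when any 1 of 9 of the 15 arrays was left out, namely control siRNA replicates 2 and 3, all 3 FOXL2 siRNA arrays, wildtype replicate 3 or all 3 mutant arrays (adjusted p from 0.0526 to 0.0939). It was also lost after quantile normalization (difference 0.78, adjusted p = 0.0620) and with the mean of its 7 probe sets (difference 0.17, adjusted p = 0.709). For CDKN1A the difference was -0.72 (SE 0.15, adjusted p = 0.0612), and without empty vector replicate 1 it was called at -0.58 (adjusted p = 0.0121), as it was without replicate 3 of that group (-0.81, adjusted p = 0.0169). CDKN1B was called without empty vector replicate 1 at -0.72 (limma adjusted p = 0.0079), against -0.44 with it. Leaving out single arrays also changed the number of calls over all probe sets, as given in the closing section.

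The order of the groups followed the cell line for most members. In CCND1, CCND2, CDK6 and CDKN1A both KGN groups stood above all COV434 groups, and in CCND3, CDK4, CDKN1C, CDKN2A and CDKN2B all COV434 groups stood above both KGN groups. On the deposited values CDKN1B was highest with control siRNA (9.49). It then read 9.39 with wildtype FOXL2, 9.37 after knockdown, 9.34 with mutant FOXL2 and 9.02 with empty vector. The lines appear to have been normalised apart, so the places of its KGN groups among the COV434 groups can depend on the scaling. Neighbours in that order differed by no more than the spread of the arrays, apart from the gap to the lowest group when empty vector replicate 1 was left out (8.73). Within a line, the neighbouring groups of CCND1, CDK4 and CDKN2A did not differ beyond their spread.

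Genes around these members in the G1 pathway were read from a list of 30, of which 29 were measured. Here and in the lists that follow, each gene counts through its representative probe set. The shares beside counts within a line are over all probe sets, also dim and unnamed ones. Such counts and shares are therefore not on a like basis. Within the lines 0 were called in any comparison by limma. After knockdown 6 of the 29 had an unadjusted p under 0.05, against 7.5% of all probe sets. With wildtype FOXL2 5 did (11.1% of all probe sets), with mutant FOXL2 7 (13.0%) and between mutant and wildtype 0 (1.11%). The median difference of the 29 was -0.04 after knockdown, -0.11 with wildtype and -0.20 with mutant FOXL2. Over all genes it was 0.01, -0.02 and -0.01. Without empty vector replicate 1, RB1, which encodes RB, rose by 0.57 with wildtype (adjusted p = 0.0256) and 0.42 with mutant FOXL2 (adjusted p = 0.0396). E2F2, an activating E2F, fell by 0.38 and by 0.55 in the same fits (adjusted p = 0.0455 and 0.0276). MNAT1, a subunit of the CDK-activating kinase, fell by 0.50 and TFDP2, a partner of the E2F proteins, fell by 0.44 with mutant FOXL2. In those fits 2.3% of all probe sets were called with wildtype and 2.99% with mutant FOXL2.

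RB1 read 9.14, 8.41 and 8.35 with empty vector, 8.98, 9.01 and 8.86 with wildtype and 8.81, 8.75 and 8.85 with mutant FOXL2. E2F2 read 8.09, 8.83 and 8.88, then 8.46, 8.48 and 8.47, then 8.24, 8.30 and 8.37. In both genes empty vector replicate 1 lay on the far side of the FOXL2 arrays from the rest of its group. MNAT1 read 9.28, 9.14 and 8.89 and TFDP2 read 9.98, 9.78 and 9.57 with empty vector, all above the mutant arrays, which read 8.42 to 8.62 and 9.13 to 9.33. Between the lines 7 of the 29 were higher and 7 lower in KGN (6 and 11 after quantile normalization). Of all genes 39.7% were higher and 16.8% lower as deposited, and 21.5% and 29.4% after quantile normalization. The G1 genes called included E2F5 at -2.81, TFDP2 at -2.32 and E2F7 at 1.92 (-3.18, -2.64 and 1.61 after quantile normalization).

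Of 19 E2F target genes, 18 were measured and 0 were called within the lines by limma. At an unadjusted p under 0.05 there were 1 after knockdown, 3 with wildtype, 5 with mutant and 0 between mutant and wildtype. The shares of all probe sets at that threshold were 7.5%, 11.1%, 13.0% and 1.11%. Without empty vector replicate 1, 3 of the 18 fell with mutant FOXL2, where 2.99% of all probe sets were called. They were CDC45 by 0.47 and MYBL2 by 0.37, which act in replication and in the transcription of cell cycle genes. The third was RRM2 by 0.35, a subunit of ribonucleotide reductase. MYBL2 read 6.84, 8.56 and 8.60 with empty vector, 8.32, 8.29 and 8.36 with wildtype and 8.20, 8.22 and 8.20 with mutant FOXL2. With all arrays its mutant difference was 0.21 (adjusted p = 0.838), so that its direction turned with that array. RRM2 read 11.57, 11.57 and 11.51 with empty vector, 11.22, 11.17 and 11.24 with wildtype and 11.17, 11.21 and 11.19 with mutant FOXL2. In this gene the empty vector arrays lay together above both FOXL2 groups. The list's median with mutant FOXL2 was -0.08, and -0.19 without that array, beside -0.01 over all genes in each. Between the lines 3 were higher and 3 lower in KGN (1 and 6 after quantile normalization). The shares of all genes were 39.7% and 16.8% (21.5% and 29.4% after quantile normalization). GINS2 differed by -0.84, RRM2 by 0.71 and MCM6 by -0.52 (-1.18, 0.37 and -0.86 after quantile normalization).

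CDKN1A is itself a p53 target, so 22 other p53 targets were read, of which 19 were measured. After knockdown 1 of the 19 was called, against 0.273% of all probe sets. It was TP53INP1, a stress protein, which rose from 7.03, 6.86 and 6.79 to 8.02, 7.93 and 8.06 (1.11, SE 0.09, limma adjusted p = 0.0022). At an unadjusted limma p under 0.05 there were 4 of the 19 after knockdown, against 7.5% of all probe sets. The list's median after knockdown was -0.08, beside 0.01 over all genes. With wildtype or mutant FOXL2 0 were called by limma, with or without empty vector replicate 1. With all arrays 1 and 3 had an unadjusted p under 0.05, against 11.1% and 13.0% of all probe sets. The median with mutant FOXL2 was 0.13 beside -0.01 over all genes. Between mutant and wildtype 0 were called and 0 had an unadjusted p under 0.05. Between the lines 7 were higher and 8 lower in KGN (7 and 9 after quantile normalization). The shares of all genes were 39.7% and 16.8% (21.5% and 29.4% after quantile normalization). The widest were FAS at 4.17, GDF15 at 3.34 and GADD45A at 3.18 (3.77, 2.99 and 2.86 after quantile normalization).

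CDKN1C lies in an imprinted region of chromosome 11p15, and 6 of 9 listed neighbours were measured. Within the lines 0 were called by limma. At an unadjusted p under 0.05 there were 0 after knockdown, 1 with wildtype, 1 with mutant and 0 between mutant and wildtype FOXL2. The shares of all probe sets were 7.5%, 11.1%, 13.0% and 1.11%. Between the lines 4 were higher in KGN and 0 lower as deposited, and 1 and 0 after quantile normalization. The shares of all genes were 39.7% and 16.8%, and 21.5% and 29.4% after quantile normalization. PHLDA2, an imprinted growth regulator of the placenta, read 10.91 ± 0.10 (SD, n = 3) in KGN control cells and 2.77 ± 0.19 in empty vector cells, the latter below the background level of 5.05. Set against that level on the deposited values, KGN was at least 58.1-fold higher (limma adjusted p = 5.8e-09), opposite in direction to CDKN1C.

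The genes most like 3 of the members over the arrays were ranked by Pearson's correlation as a description, over 22539 or 22540 named probe sets that lay above background in at least 1 line. For CDKN1C over the 9 COV434 arrays these were CLN8 (0.96), GCH1 (0.93), WDR45 (0.92), CST7 (0.90) and GNAZ (0.90). Over all 15 arrays, where the gap between lines sets the values, they were GNAZ (0.98), FAM117A (0.97) and FOS (0.97) for CDKN1C. For CCND1 they were CAST, MYL9 and MAN2A1, and for CDKN2A they were VGLL2, RAP1A and ADA2, each above 0.99.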

How the data were processed

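KGN and COV434 RNA was hybridised to U133 Plus 2 arrays. The authors deposited log2 signals per probe set and array, made by RMA in R with background correction, and no detection calls. The versions they used are not given in the sources used here. Equal values occur between COV434 arrays (in 15 of the 28 member probe sets, on up to 5 arrays), and the lines appear to have been normalised apart. Columns of unmapped samples numbered 0.

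From these values, limma 3.58.1 (lmFit and eBayes, R 4.3.3) was fitted over the 54613 probe sets that are not array controls. P-values are two-sided and Benjamini-Hochberg adjusted over all of them, with a threshold of 0.05. Of these probe sets 41091 carry 1 symbol, 1801 several and 11721 none. KGN arrays (6) and COV434 arrays (9) were fitted apart, the line comparison used 6 control arrays, and the difference of effects used 15. An exact permutation test cannot go below 0.1 with 3 arrays against 3.

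The members, gene lists and tests were chosen with earlier results of these data known. Named were all members, listed genes called within a line (at most 5 a list), the 3 widest called between lines under both scalings, and the measured 9p21 neighbours. The bound of a fold sets the brighter mean against the background level of the other line on the deposited values, and was not taken after quantile normalization. Alternatives were each array left out, a filter on dim probe sets, trended and robust variance, all 15 arrays in a single fit, the mean of a gene's probe sets, quantile normalization and median centring. The fits were tested on simulated data. The number of arrays limits precision. The samples were mapped from their labels, and their numbers pair nothing.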

Additional observations from a re-analysis of the deposited data

Results flagged for a closer look

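The difference between the effect of FOXL2 knockdown in KGN and that of mutant FOXL2 in COV434 was tested for each member, and CDK6 was the one that passed, at 0.84 on the log2 scale (SE 0.14, limma adjusted p = 0.0276). All 3 knockdown arrays lay above all 3 control siRNA arrays, and all 3 mutant arrays lay below all 3 empty vector arrays. The 7 CDK6 probe sets did not move together, since this difference ran from -0.40 to 0.84 over them.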

How the results depend on the processing

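Counts of calls depended most on empty vector replicate 1. Leaving out 1 array at a time, the calls over all probe sets ran from 46 to 120 after knockdown, 0 to 1257 with wildtype FOXL2, 0 to 1633 with mutant FOXL2 and 28 to 1275 for the difference of effects. Over the members they ran from 0 to 1, 0 to 2 and 0 to 3 in the last 3 of these. With all 15 arrays in a single fit, 60 probe sets were called with wildtype and 261 with mutant FOXL2, of which 1 was a member. A filter on dim probe sets gave 272 calls after knockdown, 15879 between the lines and 228 for the difference of effects, with 2 members in the last. Trended and robust variance gave 378 after knockdown, with 1 member, and 2 members for the difference of effects. After quantile normalization 0 members were called for the difference of effects. No member value that was called in either fit changed sign. Of 825 alternative values of single members, 13 newly passed the threshold, 11 no longer did, 16 uncalled ones moved by more than the spread between arrays, and 785 did none of these. Among the uncalled values 55 had the opposite sign to the reported value, and these lay between -0.22 and 0.27. Where these changes were not due to fewer arrays or probe sets in the fit, the cause was not tested. No paired analysis was possible because the labels carry no replicate numbers. Signals near background, such as those of CDKN1C and of CCND2 in COV434, limit what can be read from small differences.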
